A study of Saccharomyces cerevisiae with 54 samples.

Results

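The MMTT and SS diploids of budding yeast (Saccharomyces cerevisiae) were compared 3 h 50 min after transfer to sporulation medium, in 3 libraries of each strain. These 6 libraries were chosen by their strain and time labels from 54 that cover both strains at 9 times from 0 h to 8 h 30 min. Both strains have the genome of the laboratory strain S288c and were grown in rich glucose medium, then in rich acetate medium, before the move to 1% potassium acetate with amino acid supplements. SS is the wildtype, homozygous for MKT1(89A) and TAO3(4477G). MMTT is homozygous for MKT1(89G) and TAO3(4477C), the alleles of the efficiently sporulating strain SK1, and is 1 strain made by crossing haploid segregants. Anything else that differs between the strains cannot be told apart from the 2 alleles. The comparison asks which transcripts differ between the strains in the period when meiosis is under way.

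The 2 sites that define the strains are shown first because they are the designed difference between the groups. Each stretch is the coding strand of the R64 genome, which carries the SS base, and the capital marks the exchanged base. MKT1 (YNL085W, chrXIV:467131-469623, plus strand) codes for a protein that acts in translation of specific mRNAs, and its exchange A89G at chrXIV:467219 lies in codon 30. TAO3 (YIL129C, chrIX:106107-113237, minus strand) codes for a scaffold of the RAM signalling network of polarised growth, and its exchange G4477C at chrIX:108761 lies in codon 1493. Positions in these names count from 1 at the first base of the coding sequence.
MKT1, chrXIV:467204-467234: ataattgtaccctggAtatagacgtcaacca
TAO3, chrIX:108746-108776, minus strand: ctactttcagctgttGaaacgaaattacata

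Sporulation starts when a MATa/MATalpha diploid lacks nitrogen and has only a non-fermentable carbon source. The transcription factor Ime1 then switches on early genes for premeiotic DNA replication, recombination and chromosome pairing, many of which carry a URS1 element bound by Ume6, and the kinase Ime2 promotes the later steps. The transcription factor Ndt80 next switches on middle genes for the meiotic divisions and spore formation through middle sporulation elements, which the repressor Sum1 occupies before.

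Reads per gene were analysed as counts, with between 3057918 and 5793502 counts per library. The levels below are counts per 1e6 (CPM) scaled by edgeR's TMM factors, and errors beside means are SDs over 3 libraries. Levels in CPM are not divided by gene length, so they are compared between libraries and not between genes. A gene was tested if 3 or more of 49 libraries reached 3 CPM, which 6031 genes did, the 49 being all libraries except 5 that the study set aside as outliers, none of them at 3 h 50 min. Replicate 1 of SS stood apart. Its distance over the 300 most variable genes was 33.8 and 36 to the other SS libraries, which were 15.4 from each other, and its nearest library of any group was 27.7 away, the farthest among the 49. Table entries without a place in the R64 annotation took 1.09% of its counts, against 0.322% to 0.443% in the other 5 libraries. Many results that change much without this or another single library are given with and without it, but not all. Among 193 named genes that passed the adjusted p of 0.05 used below, 122 still passed without each library in turn. A further list held genes normally silent in MATa/MATalpha diploids, such as pheromone and mating genes. Mean levels of its tested members were 2.35 to 45.1 CPM in MMTT and 2.25 to 40.9 CPM in SS. Its 21 members, 20 of them tested, summed to between 287 and 360 counts per 1e6 in MMTT and between 296 and 312 in SS. These sums were scaled by library totals without TMM factors. No member was at 0 in all 6 libraries, and without a haploid library for comparison their silencing could not be judged. Of these genes, MF(ALPHA)1 and STE4 were higher and MFA1 and STE5 lower in MMTT.

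Neither of the genes that carry the exchanged bases passed the test for transcript level. MKT1 had 130, 138 and 140 CPM in MMTT and 81.0, 148 and 149 CPM in SS, the low value being SS replicate 1 (log2 difference 0.11, SE 0.17, adjusted p = 0.705, by the quasi-likelihood test of edgeR, adjusted after Benjamini and Hochberg, as throughout). TAO3 had 143, 143 and 137 CPM in MMTT and 157, 190 and 177 CPM in SS, without overlap (log2 difference -0.31, SE 0.14, adjusted p = 0.121). The single exchanged bases cannot be read from counts per gene.

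A gene was called where the adjusted p was under 0.05 and the absolute log2 difference was over 2. By this rule 91 genes were higher in MMTT, 1.51% of those tested, and 9 were lower, 0.149%. At an absolute log2 difference over 1 there were 221 (3.66%) and 97 (1.61%). By the adjusted p alone, which is how members of gene lists are counted below, 559 genes (9.27%) were higher and 646 (10.7%) lower. The groups did not overlap in 1011 genes (16.8%) with MMTT above SS and in 1110 (18.4%) with MMTT below. The median over all genes tested was -0.04. In this fit lower genes were thus somewhat more frequent over all sizes, while large differences were mostly higher in MMTT. The excess of lower genes by the adjusted p alone was not stable. The order turned without SS replicate 1 (450 higher, 421 lower), without MMTT replicate 1 (399 and 383) and with the 6 libraries alone (226 and 112). It stayed without each other single library. In all but 1 of the 91 higher genes the groups did not overlap, the exception being PFS1, a gene of prospore formation chosen here after its values were seen, with 14.3, 14.8 and 3.54 CPM against 6.23, 0.891 and 0.527 CPM. The median level over the 91 genes was 48.2, 53.5 and 20.1 CPM in the MMTT libraries and 3.30, 2.38 and 2.28 CPM in the SS libraries. Of these genes, 36 belong to lists of meiosis, DNA replication or spore formation, which were written with earlier results of these data known. Called higher were 13 of 54 genes in the meiotic prophase lists and 19 of 66 in the division and spore lists. The share over all genes tested was 1.51%. Without SS replicate 1 the counts of called genes were 105 higher, including 82 of the 91, and 1 lower.

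**Figure D1:**
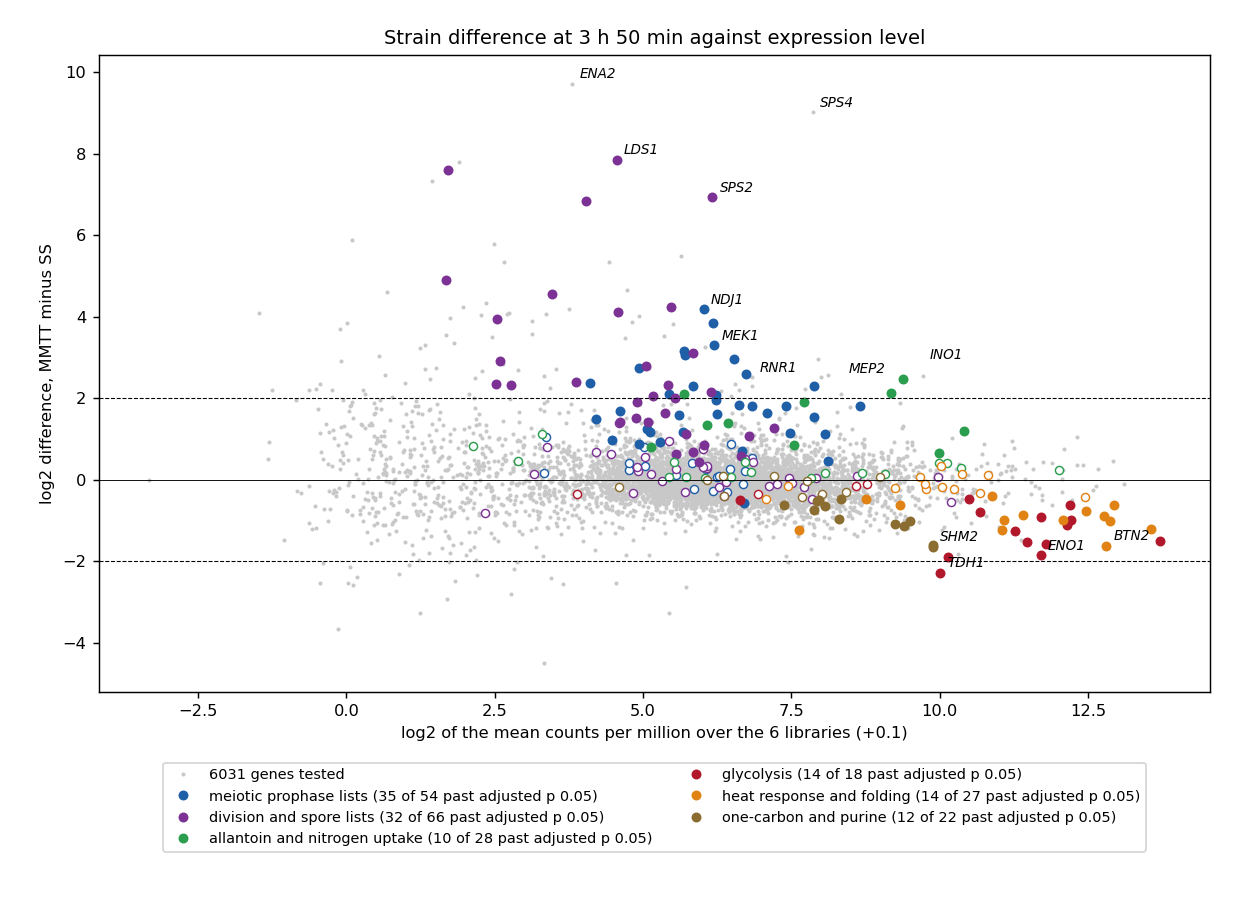
Log2 difference between MMTT and SS for 6031 genes (vertical axis) against the log2 of the mean CPM over the 6 libraries (horizontal axis), with members of selected lists in colour, filled where the adjusted p was under 0.05. The 91 genes called higher outnumber the 9 called lower, and the spore genes with the largest differences sit at low to moderate mean levels.

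Genes that start meiosis were the first group. Of 15 meiotic entry regulators, 6 were higher and 2 lower in MMTT, with a median log2 difference of 0.30. Without single libraries 4 to 6 were higher and 1 to 2 lower. IME1 (YJR094C), the master activator of entry, had 726, 426 and 516 CPM in MMTT and 107, 211 and 167 CPM in SS. Every MMTT library lay above every SS library, with a log2 difference of 1.78 (SE 0.51, adjusted p = 0.0107). It missed the threshold without SS replicate 1 (1.57, adjusted p = 0.0612), the lowest SS library, and without MMTT replicate 1 (1.54, adjusted p = 0.0536), the highest MMTT library. IME2, the meiosis-specific kinase downstream of Ime1, had 500, 454 and 359 CPM in MMTT and 47.7, 81.1 and 96.4 CPM in SS. The groups lay far apart (log2 difference 2.53, SE 0.36, adjusted p = 2.93e-06). RIM4, an RNA-binding protein that holds back translation of middle mRNAs and promotes early genes, was higher by 2.58 (adjusted p = 3.71e-05), with 559, 451 and 420 CPM against 38.5, 106 and 93.0 CPM. KAR4 (0.88) and MUM2 (0.59), which belong to the machinery of mRNA methylation in meiosis, were higher by less. SLZ1, another subunit of that machinery, averaged 516 ± 80.3 CPM against 219 ± 187 CPM with overlapping groups (adjusted p = 0.0281). The 2 lower members were RPD3 (-0.42), the histone deacetylase recruited by Ume6, and RIM15 (-0.60), a kinase that promotes entry. SLZ1, RPD3 and RIM15 were chosen for mention after their values were seen.

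**Figure D2:**
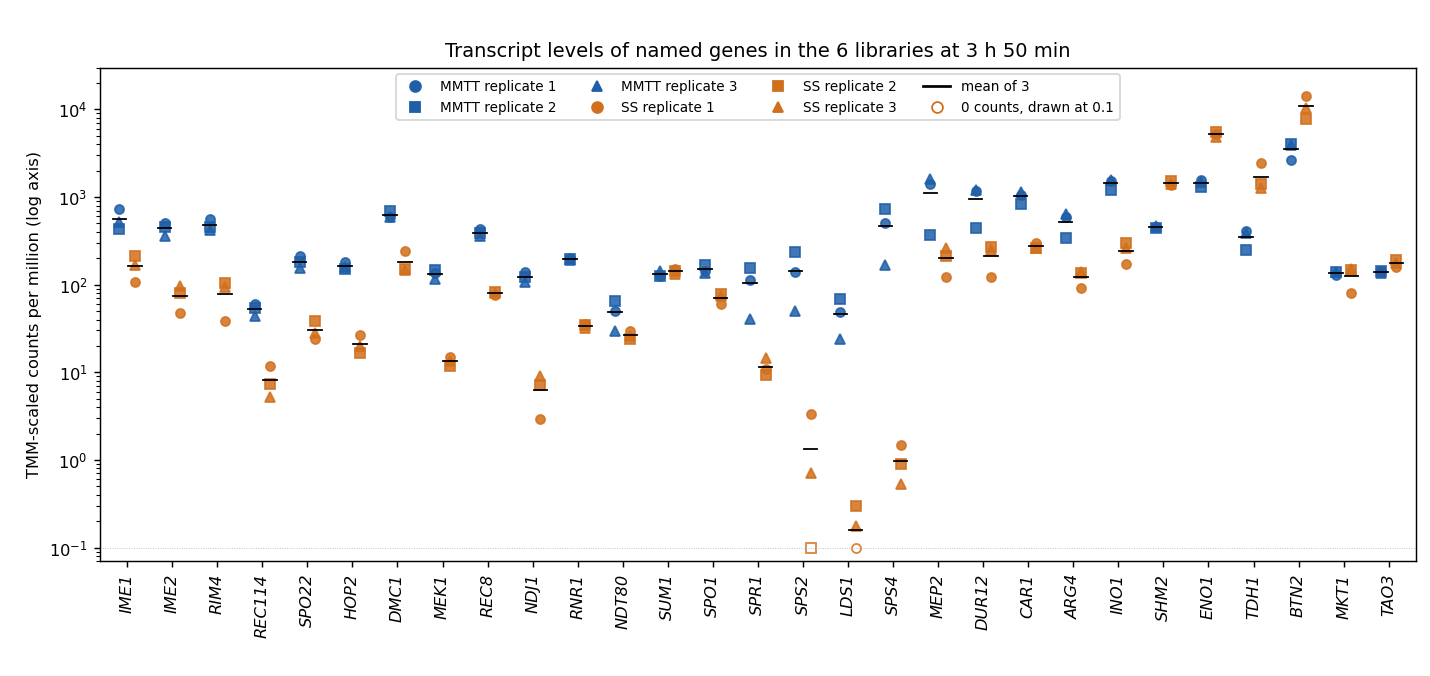
TMM-scaled CPM (log axis) of 29 genes in the 3 MMTT and 3 SS libraries at 3 h 50 min, with 1 point per library, marker shape for the replicate and a bar at the mean of 3. IME2, MEK1, NDJ1 and SPS4 are separated between strains by a wide gap, MKT1 and SUM1 overlap, and TDH1, ENO1, SHM2 and BTN2 are lower in MMTT.

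Recombination and chromosome structure genes were the next group, in 4 lists of meiotic prophase. Of their 54 members 34 were higher and 1 lower, with a median log2 difference of 1.17, and 13 were called. The mean log2 CPM over these 54 genes was 6.31 to 6.50 in MMTT and 5.03 to 5.16 in SS, so the libraries of each strain were close together and the strains did not overlap. In 17 of the 34 higher members (50%) the 300 bases before the annotated coding start hold GGCGGC on either strand, the core of URS1, against 5.29% of 5692 such windows over all genes tested. The windows of NDJ1 (chrXV:117455-117754, minus strand, R64) and MEK1 (chrXV:996512-996811, minus strand, R64) are printed because these genes have the smallest adjusted p-values of the group, with the core in capitals. It ends 83 bases before the start in NDJ1, and 143 and 129 bases before it in MEK1. A match is a description of letters, not a site shown to be bound. GGCGGC also occurred in 4 of 14 windows of genes in the heat list that were lower in MMTT (28.6%). For this and the other motifs below, the share in list members that did not pass was not computed. The shares therefore describe the listed genes and are not tied to the strain difference.
NDJ1: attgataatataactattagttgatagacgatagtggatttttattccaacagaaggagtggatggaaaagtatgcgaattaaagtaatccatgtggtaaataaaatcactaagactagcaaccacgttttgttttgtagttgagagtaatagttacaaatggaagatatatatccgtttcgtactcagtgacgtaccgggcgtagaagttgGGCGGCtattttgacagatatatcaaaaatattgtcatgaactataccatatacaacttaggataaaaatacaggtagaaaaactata
MEK1: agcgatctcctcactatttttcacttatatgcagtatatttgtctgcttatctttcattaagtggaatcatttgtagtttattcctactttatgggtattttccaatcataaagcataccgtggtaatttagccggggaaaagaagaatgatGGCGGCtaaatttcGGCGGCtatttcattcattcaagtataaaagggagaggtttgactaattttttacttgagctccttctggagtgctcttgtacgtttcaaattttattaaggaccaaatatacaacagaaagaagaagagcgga

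NDJ1 (YOL104C), a telomere protein that tethers chromosome ends to the nuclear envelope in meiosis, had 141, 123 and 106 CPM in MMTT. In SS it had 2.93, 7.13 and 8.95 CPM. This is a log2 difference of 4.19 (SE 0.37, adjusted p = 4.67e-10). MEK1 (YOR351C), a kinase that directs repair to the homologous chromosome, had 138, 147 and 115 CPM in MMTT and 15, 11.9 and 13.5 CPM in SS. Its libraries were tight within each strain (log2 difference 3.31, SE 0.30, adjusted p = 5.37e-10). REC8, the meiotic cohesin, had 430, 390 and 358 CPM in MMTT and 75.5, 81.4 and 81.3 CPM in SS (log2 difference 2.30, SE 0.24, adjusted p = 1.06e-08). In the list of axis, cohesion and monopolin genes 13 of 17 were higher and none lower, with a median of 1.18. PCH2 (2.30), a checkpoint ATPase, and SMC3 (1.53), a core cohesin subunit also used in mitosis, passed the test as well. Chosen after their values were seen, the axis proteins HOP1 (1.80) and RED1 (1.81) and the monopolar attachment factor SPO13 (2.10) did too.

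Synapsis and crossover genes were higher in 9 of 12 cases, with a median of 1.62. SPO22, also called ZIP4, a scaffold of the crossover proteins, had 212, 182 and 153 CPM in MMTT and 23.8, 38.6 and 28.3 CPM in SS (log2 difference 2.59, adjusted p = 4.96e-09). ECM11 (3.16), a SUMO-modified part of the central element, SPO16 (3.06), a crossover factor, MSH5 (1.83), a subunit of the MutS-gamma complex, and HFM1 (1.60), a helicase, differed in the same direction. ZIP1, the transverse filament of the synaptonemal complex, had 222, 217 and 175 CPM in MMTT and 46.6, 68.6 and 82.0 CPM in SS (log2 difference 1.63, adjusted p = 6.22e-05). Among strand exchange genes 7 of 13 were higher and none lower, with a median of 0.87, and 5 to 7 were higher without single libraries. DMC1, the meiotic recombinase, had 593, 695 and 597 CPM in MMTT against 240, 152 and 148 CPM in SS (log2 difference 1.81, SE 0.30, adjusted p = 2.93e-05). Its accessory factors differed more, with MEI5 at 3.84, HOP2 at 2.96, HED1 at 2.07 and MND1 at 1.95. HOP2 had 181, 149 and 161 CPM in MMTT and 26.8, 16.6 and 20.0 CPM in SS, and MEI5 had 143, 152 and 108 CPM against 14.7, 8.61 and 6.14 CPM. No library of one strain reached the range of the other.

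Double-strand break genes were mixed, with 5 of 12 higher, 1 lower and a median of 0.09. REC114, a partner of the break-forming enzyme, had 60.7, 53.5 and 44.4 CPM in MMTT and 11.7, 7.42 and 5.27 CPM in SS (log2 difference 2.75, adjusted p = 2.94e-08). MEI4 (1.68), REC102 (1.5) and REC104 (1.25), which form complexes with it, were higher too. SPO11, the enzyme that cuts, had 52.9, 62.2 and 36.8 CPM in MMTT and 33.0, 26.7 and 20.7 CPM in SS, a smaller gap (log2 difference 0.93, adjusted p = 0.0108) that missed the threshold without MMTT replicate 2 (0.75, adjusted p = 0.0842) and without SS replicate 3 (0.77, adjusted p = 0.0699). XRS2, of the MRX nuclease that all cells use, was lower (-0.57, adjusted p = 0.00823) but did not pass without SS replicate 1 (adjusted p = 0.101), MMTT replicate 1 (0.066) or MMTT replicate 3 (0.0681).

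Premeiotic DNA replication genes were mixed. Of 34 members 15 were higher and 3 lower, with a median of 0.46. The 6 libraries fitted alone gave 7 higher and 2 lower, and 1 and 0 with a replicate block added. RNR1 (YER070W), the large subunit of ribonucleotide reductase, had 200, 194 and 189 CPM in MMTT and 35.2, 35 and 31.9 CPM in SS. Replicates agreed closely, and its log2 difference of 2.52 (SE 0.22) had the smallest adjusted p of all genes, 4.67e-10, together with NDJ1. The small subunits went the other way. RNR2 had 514, 478 and 591 CPM against 1168, 1039 and 1056 CPM (log2 difference -1.04, adjusted p = 6.64e-08), and RNR4 was lower by -0.92. MCM5 (1.15) and MCM2 (0.85), of the replicative helicase, were higher. The letters ACGCGT, the core bound by the G1/S factor MBF, occurred in 7 of the 15 windows of higher members (46.7%), against 3.60% of all. All 6 histone genes that passed, of 10, were higher, with a list median of 0.56. HHT2, a histone H3 gene, had 1064, 906 and 951 CPM in MMTT and 502, 466 and 577 CPM in SS, and HTB2 (1.33) and the linker histone HHO1 (1.12) were higher as well. Without single libraries the number of higher histone genes ranged from 3 to 9. Histone mRNAs come from near-identical gene pairs, so reads may be split between copies.

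**Figure D3:**
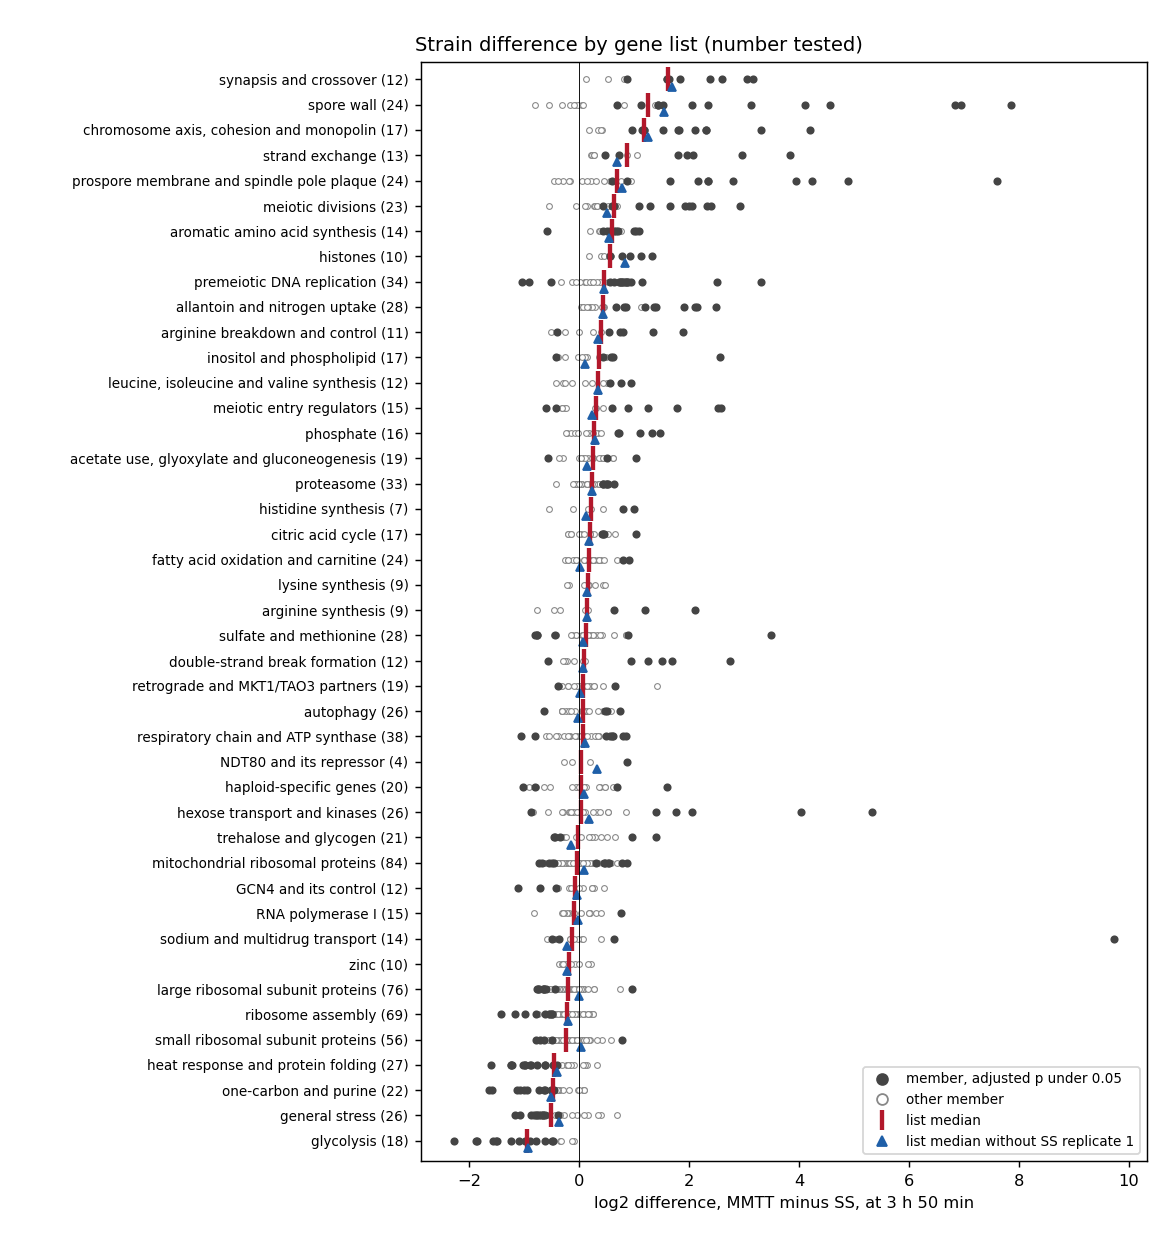
Log2 difference between MMTT and SS at 3 h 50 min for each member of the gene lists (horizontal axis, 1 point per gene, filled where the adjusted p was under 0.05), with the list median as a red bar and the number tested beside each list name. The medians of the meiotic prophase, division and spore lists lie to the right of 0, that of double-strand break genes only just (0.09). Those of the glycolysis, heat, general stress and one-carbon lists lie to the left.

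The switch to middle genes was examined next. NDT80 had 50.1, 65.2 and 29.5 CPM in MMTT and 29.7, 23.8 and 26 CPM in SS. MMTT replicate 3 was within the SS range, and the log2 difference was 0.87 (SE 0.30, adjusted p = 0.0318). NDT80 passed only without MMTT replicate 3 when single libraries were left out, the differences then being 0.58 to 1.13 and the highest adjusted p 0.237, without MMTT replicate 2. SUM1 had 124, 124 and 144 CPM in MMTT and 152, 144 and 132 CPM in SS, with overlap (log2 difference -0.12, adjusted p = 0.514). Of 66 genes in the lists of meiotic divisions, prospore membrane and spore wall, 32 were higher and none lower, with a median of 0.69, and 19 were called. Leaving out single libraries gave 23 to 34 higher and at most 1 lower, with 23 and a median of 0.49 without MMTT replicate 2. Over these 32, 27 windows (84.4%) hold CACAAA on either strand, the core of the middle sporulation element, against 19.6% of all. The windows of SPS4 (chrXV:902875-903174, minus strand, R64) and LDS1 (chrI:119542-119841, minus strand, R64) are printed as those of the middle genes with the largest difference in the data and with next to no counts in SS, the core being in capitals. In LDS1 it lies on the other strand and reads TTTGTG. It ends 185 bases before the start in SPS4 and 173 bases before it in LDS1.
SPS4: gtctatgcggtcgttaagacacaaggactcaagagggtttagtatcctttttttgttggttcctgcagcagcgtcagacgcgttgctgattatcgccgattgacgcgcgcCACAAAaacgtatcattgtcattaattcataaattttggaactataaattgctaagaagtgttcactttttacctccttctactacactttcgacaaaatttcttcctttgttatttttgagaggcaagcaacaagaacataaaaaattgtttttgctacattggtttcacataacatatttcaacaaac
LDS1: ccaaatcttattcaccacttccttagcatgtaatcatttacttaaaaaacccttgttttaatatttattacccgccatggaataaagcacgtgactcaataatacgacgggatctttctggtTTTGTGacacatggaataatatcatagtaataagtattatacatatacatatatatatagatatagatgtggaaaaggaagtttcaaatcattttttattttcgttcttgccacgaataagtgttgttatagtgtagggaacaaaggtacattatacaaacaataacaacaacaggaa

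SPS4 (YOR313C), a gene named for its expression in sporulation, had 507, 722 and 166 CPM in MMTT. In SS it had 1.47, 0.891 and 0.527 CPM. The log2 difference was 9.03 (SE 0.93, adjusted p = 8.82e-09), and even the lowest MMTT library was far above SS. SPS2, a spore wall protein, had 139, 238 and 49.5 CPM in MMTT and 3.30, 0 and 0.702 CPM in SS (log2 difference 6.94, adjusted p = 2.75e-07). LDS1, a lipid droplet protein of the spore wall, had 628 counts over the MMTT libraries and 2 over the SS libraries, a ratio of 280 after scaling to library size with a 95% exact counting interval of 77.1 to 2314. DTR1, a transporter of the spore wall precursor bisformyl dityrosine, had 439 counts against 3, a ratio of 130 (44.3 to 634), and SMA2, needed for prospore membrane assembly, 82 against 2, a ratio of 36.5 (9.79 to 307). These intervals cover counting error only. SPO77, needed for spore wall formation, had 5.62, 9.10 and 4.25 CPM in MMTT and no count in SS, and with a floor of 3 counts per SS library was at least 7.53-fold higher.

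Spore wall genes were higher in 13 of 24 cases, with a median of 1.26, or 8 and 0.72 without MMTT replicate 2, and prospore membrane and spindle pole plaque genes in 11 of 24, with a median of 0.68. SPR1, a spore wall glucanase, had 114, 156 and 40.1 CPM in MMTT and 11, 9.21 and 14.6 CPM in SS (log2 difference 3.12, adjusted p = 2.42e-06). LDS2 (4.12), a lipid droplet protein, SPO19 (4.24), a cell wall protein of the prospore, and SPO74 (2.80), a part of the meiotic spindle pole plaque, were also called. Outside the lists OSW1, an outer spore wall gene (4.57), SPR2 (5.50), a sporulation-induced gene, and MER1 (4.35), a meiotic splicing activator, were among the 15 called genes of largest difference. MER1 had 11.5, 10.2 and 6.84 CPM in MMTT and 1.10, 0 and 0.351 CPM in SS. Several spore wall genes, chosen after their values were seen, did not pass. They include DIT1 (-0.32, adjusted p = 0.303) and DIT2 (-0.81, adjusted p = 0.202), which make dityrosine, CHS3 (0.05, adjusted p = 0.885), which makes chitin, and SPS100 (-0.55, adjusted p = 0.215), with 946 ± 46.7 CPM against 1382 ± 389 CPM. Meiotic division genes were higher in 12 of 23 cases, with a median of 0.64, or in 9 without SS replicate 1. AMA1, the meiotic activator of the anaphase-promoting complex, had 232, 245 and 150 CPM in MMTT and 104, 76.0 and 78.3 CPM in SS (log2 difference 1.28, adjusted p = 0.000252). SPO1, a phospholipase-like protein of spindle pole duplication, had 144, 169 and 136 CPM against 59.4, 77.5 and 74.1 CPM (1.08, adjusted p = 8.09e-06). SSP1 (1.65), of the leading edge of the prospore membrane, and the RNA-binding proteins PES4 (2.00) and MIP6 (1.92), which bind mRNAs of middle genes, were higher too.

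The MMTT libraries differed among themselves in these genes. Of the 32 higher division and spore genes, 31 had their highest MMTT value in replicate 2 and 31 their lowest in replicate 3. The median deviation from the mean of the 3 was 0.17, 0.63 and -0.76 on the log2 scale in replicates 1, 2 and 3. The nearest library to MMTT replicate 2 was a 5 h 40 min MMTT library, at a distance of 17.2. In the 10 higher nitrogen genes described next, replicate 2 was instead the lowest in all 10, with median deviations of 0.45, -0.97 and 0.48. The prophase lists varied little, as given above. What sets these libraries apart from each other was not tested.

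**Figure D4:**
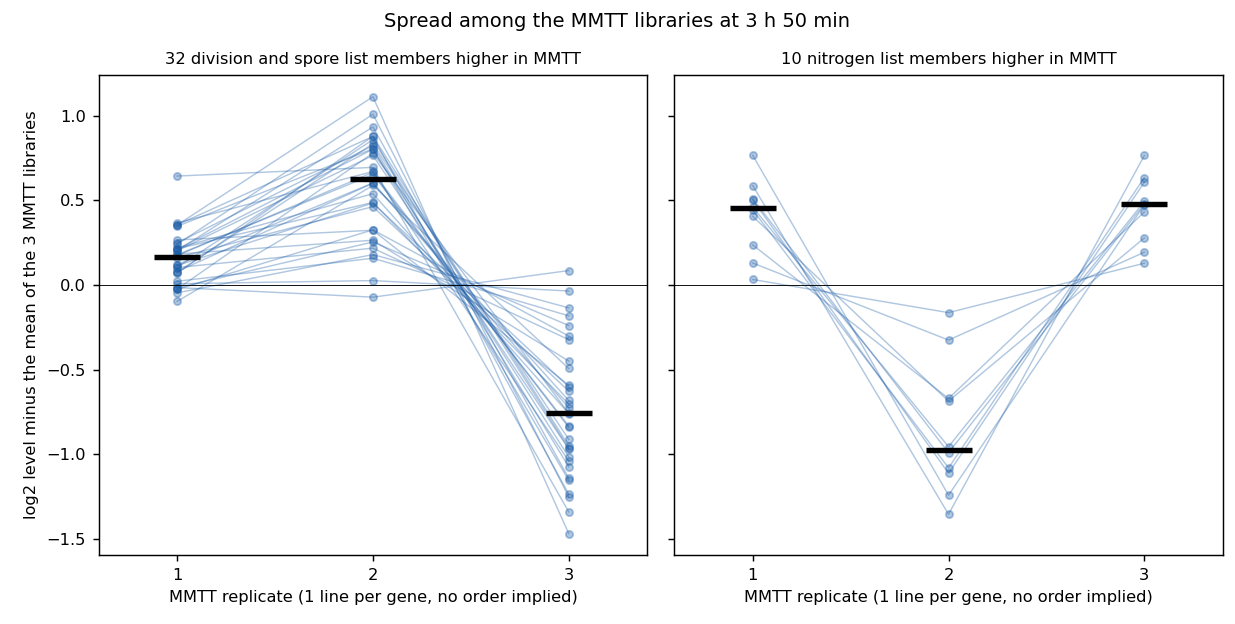
Log2 level of each gene in the 3 MMTT libraries minus the mean of the 3 (vertical axis), with 1 line per gene and a black bar at the median. The 32 higher division and spore genes are highest in replicate 2 in 31 cases, while the 10 higher nitrogen genes are lowest there in all 10.

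Genes for nitrogen uptake and breakdown were the next group of higher genes. Of 28 members in the list of allantoin use and nitrogen uptake, 10 were higher and none lower, with a median of 0.43. Leaving out single libraries gave 7 to 11 higher, with 7 without MMTT replicate 1 or replicate 3. With the 6 libraries alone and a replicate block 0 passed. The factors Gln3 and Gat1 activate many of the listed genes through GATAAG in nitrogen-poor medium. Of the windows of the 10 higher genes, 6 (60%) hold these letters on either strand, against 14.7% of all. The window of MEP2 (chrXIV:357153-357452, plus strand, R64) is printed because this gene has the largest difference in the list, with the letters in capitals, on the other strand as CTTATC, ending 228 bases before the start.
MEP2: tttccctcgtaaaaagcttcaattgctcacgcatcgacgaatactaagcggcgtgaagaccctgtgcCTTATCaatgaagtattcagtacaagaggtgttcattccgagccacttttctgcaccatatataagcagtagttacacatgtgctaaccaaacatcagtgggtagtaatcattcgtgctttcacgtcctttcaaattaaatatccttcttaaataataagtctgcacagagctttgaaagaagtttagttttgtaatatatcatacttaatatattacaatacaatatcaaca

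MEP2 (YNL142W), the high-affinity ammonium transporter, had 1411, 367 and 1596 CPM in MMTT and 122, 215 and 264 CPM in SS. Replicate 2 was far below the other MMTT libraries but above all SS libraries (log2 difference 2.48, SE 0.40, adjusted p = 2.18e-05). DUR12, urea amidolyase, had 1181, 443 and 1209 CPM against 122, 272 and 246 CPM (2.14, adjusted p = 6.37e-05), and DUR3, the urea transporter, 415, 136 and 447 CPM against 78.1, 94.4 and 92.7 CPM (1.91, adjusted p = 0.000107). UGA4, a transporter of the amino acid GABA (2.10), and UGA1, which breaks GABA down (0.86), followed the same direction. The permeases DAL5 (1.39) and GAP1 (1.20), chosen after their values were seen, passed as well.

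Arginine genes differed unevenly. CAR1, arginase, had 1068, 834 and 1151 CPM in MMTT and 296, 261 and 265 CPM in SS, without overlap (log2 difference 1.89, adjusted p = 2.61e-08). ARG4, argininosuccinate lyase, had 597, 342 and 635 CPM in MMTT and 90.9, 137 and 138 CPM in SS (2.10, SE 0.25, adjusted p = 1.14e-07). ARG1 (1.20) and ARG2 (0.63) were higher too, but the other 6 of the 9 arginine synthesis genes did not pass, with a list median of 0.14. In arginine breakdown and control 5 of 11 were higher, including CAN1, the arginine permease (1.34), and 1 was lower, PUT2 (-0.40), of proline breakdown, or 3 and 1 without SS replicate 1 and 3 and 0 without MMTT replicate 1. In aromatic amino acid synthesis 9 of 14 were higher and 1 lower, with a median of 0.60. The number higher was 5 without MMTT replicate 3, 6 without MMTT replicate 1, 7 without SS replicate 1 and 3 with the 6 libraries fitted alone. They were led by ARO2 (1.09) and ARO4 (1.03). The sulfate permease SUL1 had 60, 25.4 and 56.9 CPM in MMTT and 4.40, 4.16 and 4.04 CPM in SS (3.49, adjusted p = 5.55e-07), while its list of 28 had 2 higher and 4 lower, or 2 and 1 without SS replicate 1.

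INO1, the enzyme that makes inositol phosphate, is given in full because it had the largest difference in the list of inositol and phospholipid genes, in which 4 of 17 were higher and 1 lower, or 2 and 0 without MMTT replicate 1. It had 1533, 1206 and 1574 CPM in MMTT and 171, 298 and 263 CPM in SS, and the lowest MMTT value was above the highest SS value (log2 difference 2.56, SE 0.28, adjusted p = 2.70e-08). Its window (chrX:135934-136233, minus strand, R64) holds CATGTG, the core of the inositol-responsive element bound by Ino2 and Ino4, once on each strand, in capitals and ending 238 and 173 bases before the start. These letters occur in 7.08% of all windows.
INO1: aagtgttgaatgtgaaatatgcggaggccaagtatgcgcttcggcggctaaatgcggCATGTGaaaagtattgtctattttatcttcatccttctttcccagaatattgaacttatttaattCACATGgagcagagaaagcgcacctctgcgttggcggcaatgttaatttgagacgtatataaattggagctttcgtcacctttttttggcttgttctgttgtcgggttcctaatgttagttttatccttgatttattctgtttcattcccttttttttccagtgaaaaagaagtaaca

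Sugar transporters and carbon metabolism had scattered differences. In the list of hexose transporters and kinases 5 of 26 tested were higher and 1 lower, with a median of 0.02. HXT14, a sporulation-induced member of the hexose transporter family, had 46.1, 63.9 and 15.3 CPM in MMTT and 1.10, 0.297 and 1.40 CPM in SS (5.33, adjusted p = 6.40e-07), and HXT10 (4.03) was called too. HXT6 (2.05) and HXT7 (1.76) were higher but are near-identical, so their reads cannot be assigned with certainty. Of 19 genes of acetate use, the glyoxylate cycle and gluconeogenesis, 2 were higher and 1 lower, with 1 to 4 higher when single libraries were left out, 1 without SS replicate 1 and 4 without SS replicate 2. PCK1, of gluconeogenesis, had 6377, 7316 and 6787 CPM against 1887, 4484 and 3577 CPM (1.04, adjusted p = 0.0107), and did not pass without SS replicate 1 (0.77, adjusted p = 0.0878). Of 17 citric acid cycle genes 4 were higher, CIT3 most (1.02), with a list median of 0.20, and 0 with the 6 libraries fitted alone. Phosphate genes were higher in 5 of 16 cases, among them the transporter PHO84 (1.32) and PHM6 (1.46). ENA2, a sodium pump, had a mean of 27.8 CPM in MMTT and no count in any SS library, at least 33.1-fold higher by the same floor. The adjusted p was 0.0304, and 0.0463 to 0.0858 when single libraries were left out, under the threshold only without MMTT replicate 3. The gene belongs to a cluster of near-identical copies. GAT3, a GATA-family protein, had no count in SS either and was at least 6.27-fold higher.

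Glycolysis was the clearest group of lower genes. Of 18 members 14 were lower in MMTT and none higher, with a median of -0.95, or 12 and -0.93 without SS replicate 1. The mean log2 CPM over the list was 9.5 to 9.71 in MMTT and 10.5 to 10.7 in SS. TDH1 (YJL052W, chrX:338271-339269), a glyceraldehyde-3-phosphate dehydrogenase of starved cells, was the only gene with a symbol among the 9 called lower, with 414, 251 and 392 CPM in MMTT and 2459, 1400 and 1263 CPM in SS. The groups lay apart, and SS replicate 1 was highest (log2 difference -2.28, SE 0.26, adjusted p = 3.82e-08, or -1.91 and 1.05e-06 without that library). The other isoforms had smaller differences, TDH2 at -1.89 and TDH3 at -1.51, and these 3 genes share long stretches of sequence. ENO1 (YGR254W), enolase, had 1547, 1297 and 1493 CPM in MMTT and 5277, 5519 and 4871 CPM in SS (-1.85, adjusted p = 1.90e-08), and GPM1, phosphoglycerate mutase, was lower by -1.57. GLK1, glucokinase, was lower by -0.88.

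Heat and stress genes were also lower. Of 27 members of the heat response and protein folding list, 14 were lower and none higher, with a median of -0.47, or 10 and -0.40 without SS replicate 1. With the 6 libraries fitted alone 6 were lower, and 0 with a replicate block added. BTN2, a chaperone that gathers misfolded proteins, had 2636, 4076 and 3883 CPM in MMTT and 14330, 7764 and 10350 CPM in SS (-1.61, adjusted p = 1.37e-05). HSP104, a disaggregase, had 2799, 2831 and 3110 CPM against 7266, 4949 and 5035 CPM (-0.98, adjusted p = 1.84e-05), and SSA4, a heat-induced Hsp70, 1016, 1441 and 1324 CPM against 3221, 2543 and 3158 CPM (-1.24). HSP42 (-0.87) and HSC82 (-1.02) were lower too. Relative to the 0 h libraries of the same strain, the list median was 1.61 in MMTT and 2.14 in SS on the log2 scale. Of 26 general stress genes 12 were lower and none higher, with a median of -0.51. Without SS replicate 1 there were 7 lower and 1 higher, with a median of -0.37, and without MMTT replicate 2 there were 6 lower. The 6 libraries fitted alone gave 4 lower general stress genes, and 0 with a replicate block added. GRE1, a stress-induced hydrophilin, had 1360, 1278 and 1137 CPM against 3055, 2386 and 3034 CPM (-1.17, adjusted p = 0.00268), and ALD3, a stress-induced aldehyde dehydrogenase, was lower by -1.07. The heat shock element core GAANNTTC occurred in 7 of the 14 windows of lower heat genes (50%), against 11.8% of all. The stress element AGGGG occurred in 10 of the 12 windows of lower general stress genes (83.3%), against 22.6% of all.

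One-carbon and purine genes were lower in 12 of 22 cases and higher in none, with a median of -0.48, or 13 and -0.51 without SS replicate 1. With the 6 libraries fitted alone 7 were lower, and 1 with a replicate block added. SHM2, the cytosolic serine hydroxymethyltransferase, had 450, 447 and 472 CPM in MMTT and 1357, 1521 and 1404 CPM in SS. The replicates of each strain were close together (-1.64, adjusted p = 3.15e-09). GCV3 (-1.59), GCV1 (-1.13) and GCV2 (-1.0) code for parts of the glycine cleavage complex, and ADE2 (-0.95) for a purine synthesis enzyme. FDH2, a formate dehydrogenase named for its change with time, had 87.8, 134 and 98.8 CPM against 413, 325 and 310 CPM (-1.71, adjusted p = 1.89e-06). In contrast, ribosomal protein genes were not lower more often than all genes tested, of which 10.7% were lower, and their counts turned on SS replicate 1. Of 56 genes for the small subunit 4 were lower and 1 higher (median -0.23), but 0 passed in either direction without that library (median 0.04). Of 76 for the large subunit 8 were lower and 1 higher (median -0.20), against 1 and 2 without it (median 0.00). The 9 lower genes of 69 in ribosome assembly became 2, as they also did without MMTT replicate 1, and 5 without MMTT replicate 3. With the 6 libraries fitted alone they became 0. EBP2, a ribosome assembly factor, had 131, 160 and 168 CPM in MMTT and 738, 230 and 266 CPM in SS, where replicate 1 alone was far above the rest. Proteasome genes were higher in 6 of 33 cases, or 2 without MMTT replicate 1 and 0 with the 6 libraries fitted alone. For the other 8 genes called lower, SS replicate 1 was also the highest library, 7 had no R64 entry, and without that library only YER097W was called (-2.19, adjusted p = 0.00808).

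The time course shows where these differences stood before and after. With the outliers set aside, SS at 0 h and MMTT at 2 h 30 min and at 5 h 40 min have 2 libraries each, and the later and earlier means below rest on 2 or 3. Replicate 2 of MMTT at 2 h 30 min was itself second in distance to its nearest library among the 49, at 26.9. Of the 91 genes called higher, 15 also passed the adjusted p in the same direction at 0 h, where 7.16% of all genes did. At 2 h 30 min 75 passed (15.7% of all genes), at 5 h 40 min 79 (11.6%), and in the last libraries, those of 8 h 30 min, 74 (20.3%). Their median log2 difference was 1.42 at 0 h and 3.82 at 2 h 30 min, against 3.06 at the time studied here, and was 2.76 and 5.34 at the later times. Relative to its own 0 h libraries, MMTT passed higher in 64 of the 91 genes and SS in 15. Among all genes tested, 21.3% passed higher in MMTT and 21.3% in SS. The 91 genes were chosen because MMTT was high and SS low in the same libraries that were compared with 0 h. That choice by itself favours a rise in MMTT over one in SS. The shares of all genes are thus no fair baseline, and no conclusion is drawn from these counts. Over all genes 149 (2.47%) were called higher and 52 (0.862%) lower than at 0 h in MMTT, and 128 (2.12%) and 48 (0.796%) in SS.

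The change in the strain difference between times was tested directly, and each of these tests uses the same 3 h 50 min libraries. Relative to 0 h, 10 genes (0.166%) were called with a larger and 9 (0.149%) with a smaller or more negative difference, or 66 (1.09%) and 82 (1.36%) by the adjusted p alone. Relative to 2 h 30 min no gene was called larger and 3 (0.0497%) smaller, or 1 (0.0166%) and 4 (0.0663%) by the adjusted p alone. Relative to 5 h 40 min none was called, and 2 (0.0332%) were smaller by the adjusted p alone, FDH2 among them (-1.88, adjusted p = 0.0272). DESeq2 called 6 and 0 genes in these last comparisons, and at an unadjusted p under 0.05 edgeR passed 1196 and 1027 genes. Few changes were thus detected after adjustment, which does not show that the differences were equal.

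Some prophase genes had a larger strain difference here than at 0 h. The median over synapsis and crossover genes was 0.29 at 0 h and 1.72 at 2 h 30 min, against 1.62 here, and was 1.3 and 2.58 at the later times. Strand exchange genes had 0.60 at 0 h, 0.49 at 2 h 30 min and 0.87 here, and double-strand break genes went from -0.07 to 0.09. REC8 had a mean of 31.2 CPM in MMTT and 33.3 CPM in SS at 0 h and 393 and 79.4 CPM at 3 h 50 min, so that the difference grew by 2.4 on the log2 scale (adjusted p = 0.000416). MEK1 went from 17.7 to 133 CPM in MMTT and from 12.7 to 13.5 CPM in SS (2.83, adjusted p = 0.000452). IME2 went from 261 to 438 CPM in MMTT and from 188 to 75.0 CPM in SS (2.06, adjusted p = 0.0231). Of the 54 prophase genes 12 had a larger difference than at 0 h and none a smaller one.

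Middle genes were not at their highest at this time. The median over spore wall genes was 0.45 at 0 h and 2.64 at 2 h 30 min, against 1.26 here, and was 1.68 and 4.84 at the later times. SPS4 averaged 14.6, 1394, 465, 378 and 8827 CPM in MMTT at these 5 times in order, and 2.32, 2.21, 0.962, 1.92 and 7.81 CPM in SS. NDT80 averaged 94.8 CPM in MMTT at 2 h 30 min and 48.3 CPM here, against 471 CPM in the last libraries. A change in the strain difference of either gene between 2 h 30 min and 3 h 50 min did not pass the test. INO1 and ARG4 were instead already apart at 0 h, with log2 differences of 2.31 (adjusted p = 7.05e-06) and 2.10 (adjusted p = 6.88e-06), and the difference at 3 h 50 min was larger by only 0.24 and 0.01. MEP2 averaged 395 CPM in MMTT and 339 CPM in SS at 0 h, and its difference was larger here (2.27, adjusted p = 0.0235). In between the order was the other way, with 928 CPM in MMTT and 3141 CPM in SS at 1 h 10 min, and it was so again in the last libraries, with 598 and 1015 CPM. DUR3 likewise had 296 CPM in MMTT and 734 CPM in SS at 1 h 10 min. These early strain differences were not tested. TDH1 averaged 2221 CPM in MMTT and 3160 CPM in SS at 0 h and 352 and 1708 CPM at 3 h 50 min (-1.77, adjusted p = 0.00632). Of the 27 heat genes 8 had a more negative difference than at 0 h, where the list median was 0.28.

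**Figure D5:**
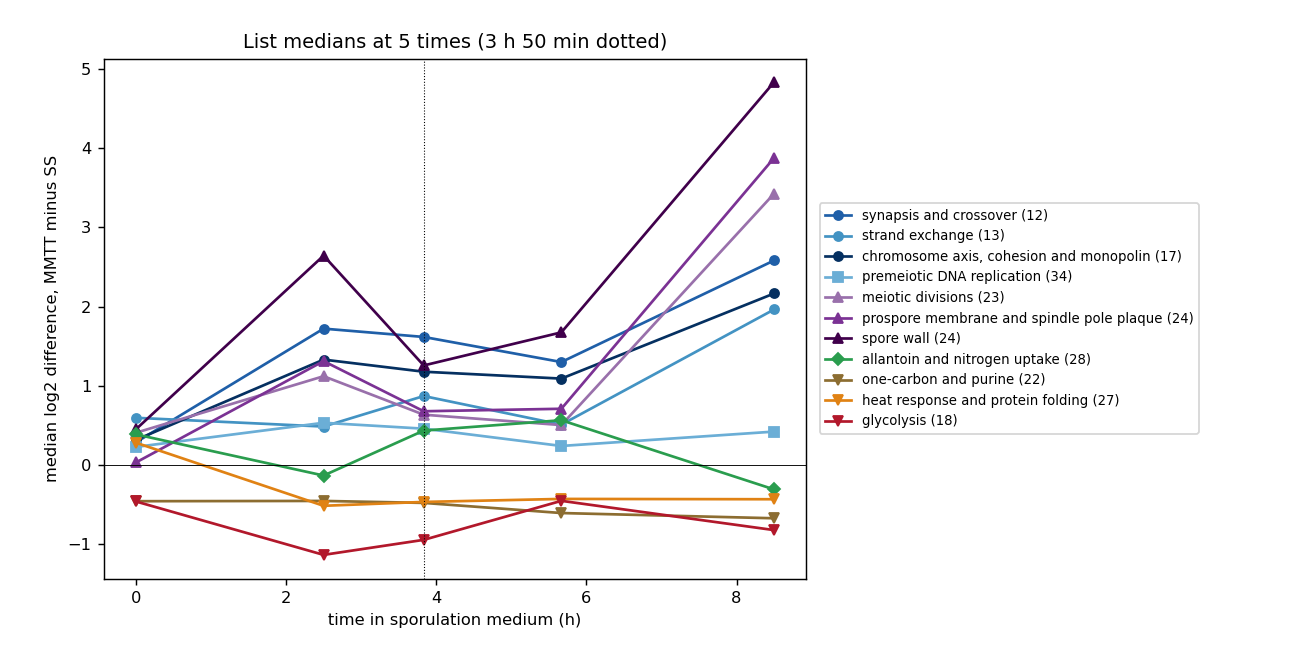
Median log2 difference between MMTT and SS over each gene list (vertical axis) at 5 of the times in sporulation medium (horizontal axis, h). Spore wall genes have a median of 1.26 at 3 h 50 min, between 2.64 at 2 h 30 min and 4.84 at 8 h 30 min, while glycolysis stays below 0 throughout.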

How the data were processed

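RNA from both strains was sequenced as directional paired-end mRNA libraries. The deposited table holds unscaled read counts by gene. The authors made these counts by discarding ribosomal RNA reads, mapping the remainder to S288c with STAR and assigning them to genes. Versions, annotation and strand setting are not given in the sources used here, so overlapping or antisense genes may share reads. Of 6571 table genes 5906 had an R64 entry and 665 did not.

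All 54 libraries were grouped by label. The 5 outlier libraries were identified by reading the study's own supplementary figure. edgeR 4.0.16 (R 4.3.3) was used with TMM factors and a robust quasi-likelihood fit over 49 libraries and 18 strain-by-time groups, with Benjamini-Hochberg adjustment over 6031 genes. SEs are the absolute log2 difference divided by the square root of F and are approximate. The levels use a prior count of 2 only on the log2 scale. The labels do not say what separates replicates, so p-values measure only the spread between these libraries, which may be technical. On simulated data the test recovered 38 of 50 genes changed by 1 log2 unit, 99 of 100 by 2 and 50 of 50 by 3, with 7 of 5831 unchanged genes passing. The simulated counts were drawn independently from the fitted model, without an outlying library, and only genes above a minimum level were changed. The simulation thus does not cover a library like SS replicate 1 or changed genes with next to no counts.

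The gene lists, named genes and members were chosen with earlier results of these data known. Named were MKT1, TAO3, 10 fixed genes of sporulation and arginine synthesis, the 15 called higher genes with symbols of largest difference and all called lower, up to 5 members per list of smallest p, and up to 3 genes per direction for each change between times. SME1, listed as an old name of IME2, is another gene here and was dropped. Motifs were searched in 300 bases before the R64 coding start. Sequences and coordinates come from the R64 reference. Alternatives were DESeq2 1.42.0, other scalings and filters, all 54 libraries, only the 6 libraries, a replicate block and leaving out each library.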

Additional observations from a re-analysis of the deposited data

Results flagged for a closer look

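For 9 genes, the up to 3 of smallest p in each direction, the strain difference at 3 h 50 min differed from that at an earlier time, called by a test of the change itself, in the edgeR fit with adjusted p over all genes. Against 0 h, the difference was larger by 2.4 on the log2 scale for REC8, by 2.83 for MEK1 and by 5.09 for SPR2. SPR2 averaged 6.40 CPM in MMTT and 4.84 CPM in SS at 0 h, and 97.5 and 2.18 CPM at 3 h 50 min (adjusted p = 0.0221).

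The changes of the other direction against 0 h were -2.21 for QDR2, a multidrug transporter, -2.19 for CYS3, of cysteine synthesis, and -2.28 for MET17, of homocysteine synthesis. In each MMTT passed the test as higher at 0 h, and neither strain passed as higher at 3 h 50 min. QDR2 averaged 98.9 CPM in MMTT and 28.1 CPM in SS at 0 h, and 78.1 and 103 CPM at 3 h 50 min (adjusted p = 8.97e-07). CYS3 averaged 39.7 and 11.9 CPM, then 26.6 and 36.9 CPM (adjusted p = 0.000552). MET17 averaged 273 and 47.1 CPM, then 33.6 and 28.4 CPM (adjusted p = 0.00167).

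Against 2 h 30 min the change was -4.74 for YNL042W-B, -5.47 for YPR108W-A and -4.78 for YOR300W, named because they were the only 3 called. At 3 h 50 min SS replicate 1 was the highest library for each, with 171 CPM of YNL042W-B against 44.2 and 56.5 CPM in the other SS libraries, 39.6 CPM of YPR108W-A against 5.64 and 19.1 CPM, and 5.13 CPM of YOR300W against 2.38 and 2.81 CPM. No gene was called in this comparison without SS replicate 1, without any 1 of the 3 MMTT libraries, or with all 54 libraries. No group held the 4 samples that a check for single outlying values needs.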

How the results depend on the processing

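No called result reversed, though the median of the small ribosomal subunit list went from -0.23 to 0.04 without SS replicate 1. The 91 higher calls were 72 with the 6 libraries alone, 39 with a replicate block added and 221 at an absolute log2 over 1. The 9 lower calls were 3 with the 6 libraries alone, 1 with a replicate block added and 97 at an absolute log2 over 1, and leaving out single libraries gave 1 to 16, the 1 without SS replicate 1, and 14 and 16 without SS replicates 2 and 3. By adjusted p alone, 559 higher became 226 with the 6 libraries and 67 with the block added, and 646 lower became 112 and 13. Leaving out single libraries gave 383 to 681 lower, with 383 without MMTT replicate 1 and 421 without SS replicate 1. In those fits 399 and 450 were higher, so higher genes were then the more frequent. Upper-quartile factors gave 622 higher and 529 lower. The fits of the 6 libraries alone have fewer residual degrees of freedom. A replicate block in the fit of all 49 libraries gave 93 higher and 8 lower calls, and DESeq2 gave 92 and 10. Equal replicate numbers gave correlations of the deviations from the group means of -0.30, -0.28 and 0.01, and no library correlated best with its own number, so the numbers were not taken as pairs. The 19 genes changed against 0 h were 30 with DESeq2, 11 with all 54 libraries, 107 at an absolute log2 over 1, and 12 to 23 without single libraries, 12 without MMTT replicate 1. The 3 against 2 h 30 min were 6, 0, 5 and 0 to 8 in that order. None against 5 h 40 min became 2 at an absolute log2 over 1 and 0 to 1 without single libraries. Against their own 0 h, MMTT had 201 calls and SS 176, or 841 and 939 at an absolute log2 over 1. Of 193 named genes past the adjusted p, 122 stayed past it without each library in turn, 145 without SS replicate 1, and 45 under every alternative. Alternatives for the 0 h comparisons and the lists were added after seeing the data.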
